A study of Mus musculus with 9 samples.

Results

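Sirtuins and class I histone deacetylases (HDACs) were followed across RNA-seq libraries of tumor-specific CD8+ T cells. The 10 genes were the 7 mouse sirtuins, Sirt1 to Sirt7, and the class I HDAC genes Hdac1, Hdac2 and Hdac3, out of 32976 genes in the count tables. The list was selected on the counts of 1 of its genes, Sirt7, which separated low avidity cells of regressing tumors from high avidity cells of progressing tumors. For the listed genes the values of that contrast are therefore given as a description, without a test, and Sirt7 is described without a test throughout.

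Wildtype BALB/c mice carried subcutaneous CT26 tumors, which grow from a colorectal carcinoma line, and all had received the PD-1 antibody RMP1-14 on days 3, 6 and 9 after implantation. CD8+ tumor-infiltrating lymphocytes that bound a tetramer of the tumor peptide GSW11 were sorted by FACS into brightly stained cells, of high T cell receptor avidity, and dimly stained cells, of low avidity. The groups were high avidity cells from progressing tumors (TetHighProg, replicates 1, 2 and 5), low avidity cells from regressing tumors (TetLowReg, replicates 6, 7 and 8) and their low avidity counterparts in tumors that progressed (TetLowProg, replicates 9, 10 and 12), with 3 libraries each. The study names 3 regressing and 3 progressing tumors, so TetHighProg and TetLowProg cells may share tumors, but the labels do not tie libraries to animals and p-values measure the spread between libraries only. A single tumor line was used, no untreated mice were among the libraries, and no regressing tumor gave a high avidity library.

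Sirtuins remove acetyl and other acyl groups from lysines of proteins and consume NAD+ in doing so. Sirt1, Sirt6 and Sirt7 are mostly nuclear, with Sirt7 concentrated in the nucleolus, Sirt2 is mostly cytoplasmic, and Sirt3, Sirt4 and Sirt5 are mitochondrial. Class I HDACs use zinc instead of NAD+. Hdac1 and Hdac2 are the catalytic subunits of the Sin3, NuRD and CoREST complexes, and Hdac3 that of the NCoR and SMRT complexes. In T cells these enzymes are known for roles in chromatin compaction, in the silencing of genes of other lineages and in metabolism.

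The libraries had between 16405306 and 36429515 reads counted on genes, but the number of genes with at least 10 counts ran from 599 to 8071. It stayed under 3000 in 4 libraries: replicates 1 and 2 of TetHighProg, 6 of TetLowReg and 10 of TetLowProg. T cell genes were present but uneven: of 12 CD8 T cell markers, 5 to 12 were found per library, and Cd8a was at 0 in TetHighProg replicates 1 and 2 and TetLowProg replicate 10, where Cd8b1 had 79539, 78155 and 75010 counts. All 5 B cell markers summed to 581, 691 and 1217 CPM (counts per 1000000 reads counted on genes) in replicates 7 and 8 of TetLowReg and 12 of TetLowProg and had at most 1 count each in the other 6 libraries. In the same order, erythroid markers summed to 31.2, 33.4 and 69.6 CPM and markers of CD4 and regulatory T cells to 58.9, 38.3 and 30.1 CPM. Elsewhere both kinds were at 0, apart from 1 count of Foxp3 in TetHighProg replicate 5. Of 10 macrophage and dendritic cell markers, 5 were found in TetLowReg replicate 7, with Lyz2 at 299515, Cd68 at 6085 and Cd14 at 4941 counts, 3 in TetLowReg replicate 8, 2 in TetLowProg replicate 12 and at most 1 elsewhere. In TetHighProg replicate 1 that 1 was Lyz2, with 51557 counts. Of 10 CT26 tumor and stroma markers, 0 to 5 were found per library and their sum was at most 387 CPM, mostly Col1a2 in TetHighProg replicate 1 (12437 counts). Epcam had 106 counts in TetLowReg replicate 7 and at most 3 elsewhere, and Krt8, Krt18 and Krt19 were at 0 in all 9. In bulk libraries such as these, fewer cells of a type and less RNA per cell cannot be told apart. The cDNA was amplified for 22 cycles of PCR without molecular identifiers, so counts are not independent molecules.

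Sirt7 was the gene that selected the list, Sirt6 the only 1 of the 10 found in every library, Sirt2 a gene found in none of the high avidity libraries, and Sirt1 a nuclear relative at a low level. Their promoters are shown for 50 bases on each side of the transcript start, from RefSeq on GRCm38.p6, 5′ to 3′ on the strand of the gene. The stretches lie at chr11:120624965-120625064 (minus) for Sirt7, chr10:81627517-81627616 (minus) for the first listed start of Sirt6, chr7:28766702-28766801 (plus) for Sirt2 and chr10:63338986-63339085 (minus) for Sirt1. Capitals mark CGGAAG, the core that ETS factors such as Ets1 can bind, and GGGCGG, the GC box of Sp1, each searched on both strands (CTTCCG and CCGCCC).
Sirt7: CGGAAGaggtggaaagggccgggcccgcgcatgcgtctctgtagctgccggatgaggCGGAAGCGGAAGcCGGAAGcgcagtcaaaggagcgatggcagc
Sirt6: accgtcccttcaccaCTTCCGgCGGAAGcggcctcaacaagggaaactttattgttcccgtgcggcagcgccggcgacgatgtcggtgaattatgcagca
Sirt2: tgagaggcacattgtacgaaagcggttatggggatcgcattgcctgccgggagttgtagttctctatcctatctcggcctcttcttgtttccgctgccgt
Sirt1: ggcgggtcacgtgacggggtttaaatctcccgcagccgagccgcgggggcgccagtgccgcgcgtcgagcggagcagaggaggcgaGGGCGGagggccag

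The Sirt7 stretch held 4 copies of CGGAAG and the Sirt6 stretch 2, while the Sirt1 stretch held 1 GGGCGG and the Sirt2 stretch neither. No match of one motif overlapped a match of the other. Over all 32851 promoter windows of the same length in the table, 9.12% held CGGAAG and 21.7% held GGGCGG. RefSeq entries matched 8 of the 10 genes, with 10 starts in all, and CGGAAG was otherwise found at 1 start of Sirt3. GGGCGG was also found at the second starts of Sirt3 and Sirt6 and at those of Sirt5 and Hdac2. A match is a description of letters only.

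Sirt7 (ENSMUSG00000025138; GRCm39 chr11:120509197-120516066, minus strand) had the highest mean level of the 10 genes. Its protein removes acetyl groups from histone H3 lysine 18 and is known for supporting ribosomal RNA synthesis. Counts were 0, 0 and 1 in TetHighProg, 70393, 12349 and 7369 in TetLowReg, and 10585, 1 and 31236 in TetLowProg. Sirt7 was thus all but missing from 4 libraries, the 3 TetHighProg ones and TetLowProg replicate 10, and abundant in the other 5. In CPM, the group means were 0.0147 ± 0.0254, 1327 ± 1617 and 428 ± 510 (SD, n = 3).

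The TetLowReg libraries of Sirt7 lay above all TetHighProg libraries, which is the pattern that chose the list and which 4.80% of the 5813 genes tested shared. TetLowProg overlapped TetHighProg because of replicate 10. It overlapped TetLowReg also without that library, since replicate 12, at 992 CPM, lay between TetLowReg replicates 7 (339 CPM) and 6 (3194 CPM). Where it was found, Sirt7 ranked between the 90th and the 541st gene of its library by count. Pooled TetLowProg held 0.374 of the Sirt7 level of pooled TetLowReg (450 against 1203 CPM). This ratio rested on TetLowReg replicate 6 and was 1.21 without it, and it was 0.143 without TetLowProg replicate 12 and 0.222 without TetLowReg replicate 7. TetLowReg replicate 6, the library with the most Sirt7, had 766 genes detected and 0 counts of every B cell and erythroid marker. TetLowProg replicate 9, with 10585, likewise had none of them, but held 570 counts of Cd68 and 3038 of Pecam1. The other libraries with Sirt7, TetLowReg replicates 7 and 8 and TetLowProg replicate 12, held both kinds of marker. Cd79b had 8721, 7635 and 22321 counts there and Hba-a1 676, 132 and 565. Which cells the Sirt7 reads came from was not tested.

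The 5′ end of Sirt7 shares 125 exon bases with the 3′ end of Mafg, the next gene upstream on the same strand, and reads falling on both genes were left out of the counts. Mafg itself had 0 counts in all 3 TetHighProg libraries, 0, 0 and 3 in TetLowReg and 690, 1 and 3 in TetLowProg, and so did not share the pattern of Sirt7.

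**Figure D1:**
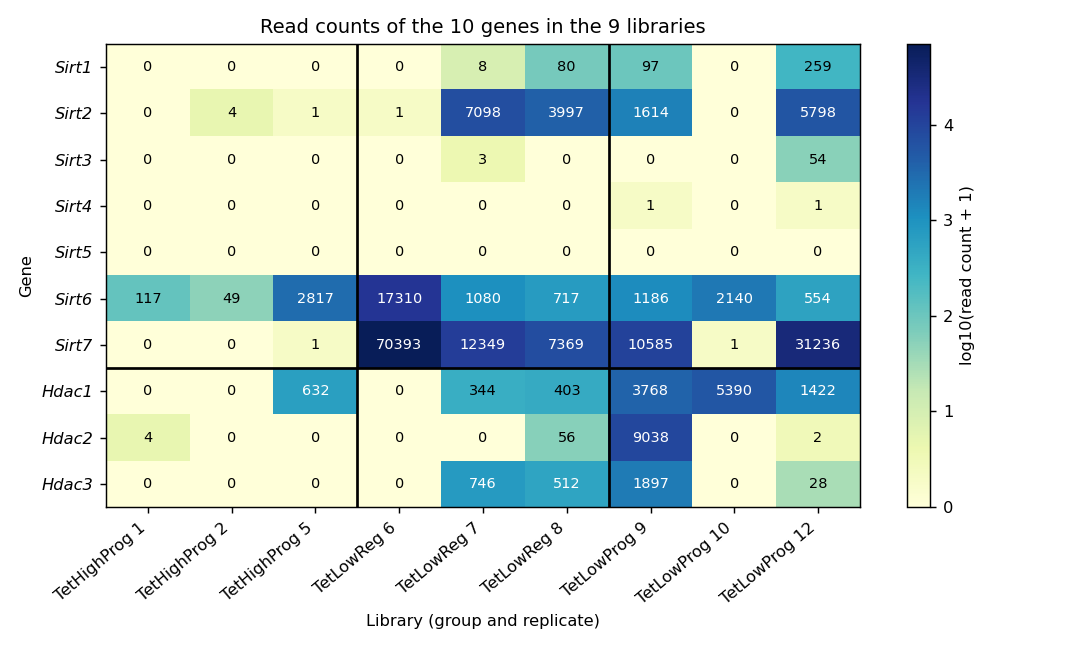
Read counts of the 10 genes (rows) in the 9 libraries (columns, by group and replicate), with color for log10(count + 1). Sirt6 is filled in every column, Sirt5 in none, and the Sirt7 row runs from 0 in TetHighProg replicate 1 to 70393 in TetLowReg replicate 6.

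Sirt6 (ENSMUSG00000034748; chr10:81455262-81463631, minus strand), a nuclear deacetylase of histone H3 known for roles in DNA repair and glycolysis, was the most evenly found of the 10. Counts were 117, 49 and 2817 in TetHighProg, 17310, 1080 and 717 in TetLowReg, and 1186, 2140 and 554 in TetLowProg. Every library passed 10 counts, including the 4 with under 3000 genes, and the groups overlapped in every comparison. Among the 13373 genes that reached 10 counts in any library, 1.35% did so in all 9. Its mean level was 43.2 ± 70.1 CPM in TetHighProg, 286 ± 432 in TetLowReg and 45.1 ± 35.5 in TetLowProg (SD, n = 3). TetHighProg replicate 5 and TetLowReg replicate 6 each stood well above the other libraries of their group.

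For TetLowProg against TetHighProg the log2 fold change of Sirt6 was 0.12 (SE 3.99; edgeR, adjusted p = 0.992), against a median of 4.27 over all 5813 genes tested. The SE was derived from the fold change and the F statistic of the test. Its direction turned to -0.39 without TetHighProg replicate 2, to -0.38 without TetHighProg replicate 1 and to -1.06 without TetLowProg replicate 10, and it was 3.44 without TetHighProg replicate 5. Against TetLowReg the log2 fold change was -2.68 (SE 4.25; edgeR, adjusted p = 1.0), where the median gene stood at 0.35, and it was -0.33 without TetLowReg replicate 6 and -4.06 without TetLowProg replicate 10. Neither comparison passed. Sirt6 shares 162 exon bases with BC025920 and 106 with Ankrd24 on the opposite strand, genes that had at most 1 and 322 counts.

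Sirt2 (ENSMUSG00000015149; chr7:28466160-28488090, plus strand), the cytoplasmic sirtuin known for deacetylating tubulin, was present or absent by library more than by group. Counts were 0, 4 and 1 in TetHighProg, 1, 7098 and 3997 in TetLowReg, and 1614, 0 and 5798 in TetLowProg. The 4 libraries in which Sirt2 was found were the 4 with the most genes detected, 6443 to 8071. TetHighProg replicate 5, with 3181 genes, had 1 count. Group means were 0.0673 ± 0.0815, 146 ± 129 and 76.2 ± 96.0 CPM (SD, n = 3). Sirt2, like Sirt1 and Hdac3 below, passed the filter on low counts only through low avidity libraries, so the direction of its fold change against TetHighProg was fixed by the filter and is no evidence of a difference. Of all 5813 genes tested, 46.6% had under 10 counts in every TetHighProg library and entered in the same way.

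The log2 fold change of Sirt2 for TetLowProg against TetHighProg was 8.64 (SE 5.43; edgeR, adjusted p = 0.259), and for TetLowProg against TetLowReg it was -1.60 (SE 4.20; edgeR, adjusted p = 1.0). In a model with a further term for libraries with over 3000 genes detected, chosen after the data were seen, the first of these was -0.17 (edgeR, adjusted p = 0.849). No SE is given in this model, since an SE derived in this way can be too small, and with the term only replicate 5 of TetHighProg lay above 3000 genes and only replicate 10 of TetLowProg below. The term moved the median of all 5813 genes in this comparison from 4.27 to 1.22. Without TetLowProg replicate 12 the fold changes of Sirt2 in the model of 3 groups were 6.89 and -3.44, without TetHighProg replicate 2 the first was 9.65, and without TetLowReg replicates 6 and 7 the second was -2.19 and -0.80. B cell markers were high in 3 of the 4 Sirt2 libraries, while TetLowProg replicate 9 had 1614 Sirt2 counts and 0 counts of all 5 B cell markers.

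Sirt1 (ENSMUSG00000020063; chr10:63154581-63217483, minus strand), which deacetylates p53, FoxO factors and histones, was a low gene in the same libraries. It had 0 counts in each TetHighProg library, 0, 8 and 80 in TetLowReg and 97, 0 and 259 in TetLowProg. These are at most 8.22 CPM, and the gene was found in 3 libraries of the low avidity groups. The log2 fold change for TetLowProg against TetHighProg was 5.52 (SE 2.79; edgeR, adjusted p = 0.193), in the direction that the filter fixed. With the term for genes detected it was 1.95 (edgeR, adjusted p = 0.339). Between the low avidity groups it was 0.64 (SE 3.51; edgeR, adjusted p = 1.0), turning to -0.69 without TetLowProg replicate 12, to 0.05 without TetLowReg replicate 6 and to 3.76 without TetLowReg replicate 8. Without TetLowProg replicate 12 the fold change from TetHighProg was 3.98. The end of Sirt1 shares 707 exon bases with Herc4 on the opposite strand, which had 0 counts in TetHighProg and up to 5888 in TetLowProg.

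**Figure D2:**
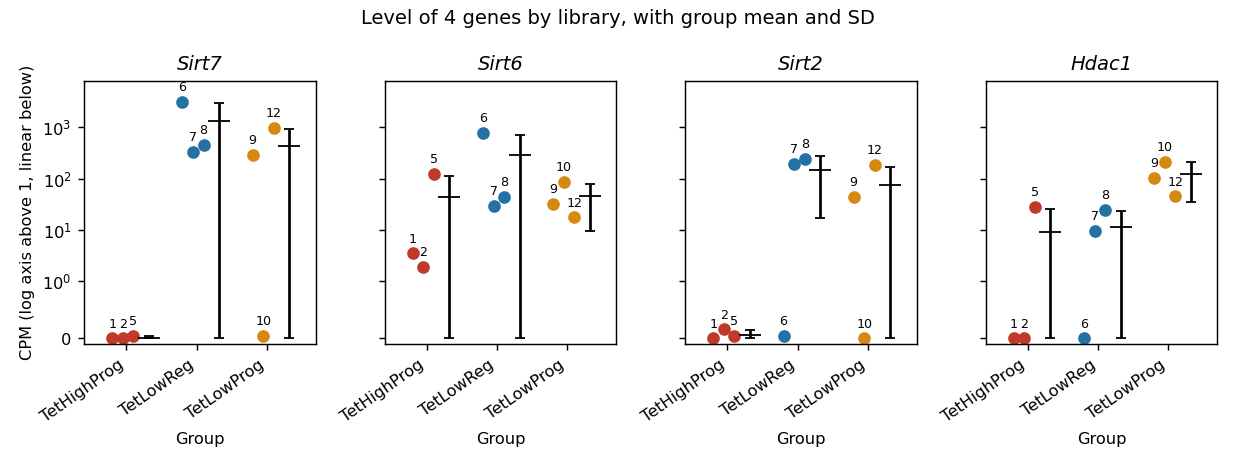
CPM of Sirt7, Sirt6, Sirt2 and Hdac1 in each library (points, with replicate numbers) by group, on an axis that is linear below 1 and logarithmic above. Horizontal ticks are group means and bars the SD (n = 3), cut at 0; the 3 Hdac1 points of TetLowProg lie at 45.1 CPM or higher, above the 27.9 CPM of TetHighProg replicate 5.

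The mitochondrial sirtuins Sirt3, Sirt4 and Sirt5 had few or no counts. Of all genes in the tables, 59.4% reached 10 counts in no library, like Sirt4 and Sirt5, and 14.8% in 1, like Sirt3. Sirt3 (ENSMUSG00000025486; chr7:140443577-140462311, minus strand), the main mitochondrial deacetylase, had 54 counts in TetLowProg replicate 12, 3 in TetLowReg replicate 7 and 0 in the other 7 libraries. Sirt4 (ENSMUSG00000029524; chr5:115616065-115622784, minus strand) had 1 count each in TetLowProg replicates 9 and 12. Sirt5 (ENSMUSG00000054021; chr13:43518856-43550487, plus strand), which removes succinyl and malonyl groups, had no count in any library, and this allows up to 0.0120 CPM over all libraries together. None of these 3 genes passed the filter on low counts. Sirt3 shares 473 exon bases with Ric8a and 458 with Psmd13 on the opposite strand, and these neighbors had up to 6833 and 3415 counts in TetLowProg. Where both strands are counted together, reads on the shared bases were left out for both genes.

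Hdac1 (ENSMUSG00000028800; chr4:129409895-129436631, minus strand) differed in pattern from the sirtuins. Counts were 0, 0 and 632 in TetHighProg, 0, 344 and 403 in TetLowReg, and 3768, 5390 and 1422 in TetLowProg. Each TetLowProg library, including replicate 10 in which Sirt1, Sirt2, Hdac2 and Hdac3 had no count, was above each of the other 6. The levels were 104, 214 and 45.1 CPM, against at most 27.9 CPM elsewhere, and the group means were 9.29 ± 16.1, 11.3 ± 12.4 and 121 ± 86.0 CPM for TetHighProg, TetLowReg and TetLowProg (SD, n = 3).

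The mean difference in log2(CPM + 1) of Hdac1 was 5.05 from TetHighProg and 3.98 from TetLowReg, with a two-sided exact permutation p of 0.1 in each case, the smallest that 3 libraries against 3 can give. Of all genes tested, 6.67% had every TetLowProg library above every TetHighProg library, 2.77% had every one above every TetLowReg library, and 1.51% had both. No other gene of the list had its TetLowProg libraries apart from either group. The separation also held for TMM-scaled CPM (43.3 against 28.5), for CPM without mitochondrially encoded genes (48.1 against 28.7) and with strand columns summed (43.8 against 27.0), where each pair gives the lowest TetLowProg and the highest other library. The fitted log2 fold changes were 3.76 (SE 4.82; edgeR, adjusted p = 0.696) and 2.81 (SE 4.62; edgeR, adjusted p = 1.0) and did not pass. That from TetHighProg was below the median gene at 4.27, and it was 10.55 without TetHighProg replicate 5 (edgeR, adjusted p = 0.268). Without TetLowProg replicate 10 the values were 2.71 and 1.74, and without TetLowReg replicate 8 the second was 3.75. With the term for genes detected they were 8.45 (edgeR, adjusted p = 0.339) and 7.80 (edgeR, adjusted p = 1.0), and still did not pass.

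Hdac1 has 2 near-identical processed pseudogenes, which bear on how its reads could be counted. Gm5824 matched 1848 transcript bases at 95.6% identity and is not a gene of the tables. Hdac1-ps matched 1992 of the 2044 bases of the Hdac1 transcript at 98.8% identity, with 12 substitutions, 9 of them in the 1446 coding bases, and a longest identical run of 450 bases, and it is the closer of the pair. The 90 coding bases with the most differences lie in exon 5 of 14, at chr4:129416768-129416857 (minus), and in the pseudogene at chr17:78799403-78799492 (plus), both on GRCm39. They are shown 5′ to 3′ with the 6 differing bases in capitals, the kind of site by which a read could be assigned.
Hdac1: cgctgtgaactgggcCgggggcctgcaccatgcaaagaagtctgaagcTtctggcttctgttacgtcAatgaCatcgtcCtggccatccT
Hdac1-ps: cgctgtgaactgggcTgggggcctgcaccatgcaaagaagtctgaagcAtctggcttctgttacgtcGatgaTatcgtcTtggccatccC

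Reads that fit more than 1 place equally were left out of the tables, so the Hdac1 counts are uncertain and can be too low. Hdac1-ps had 0 counts in TetHighProg, 0, 98 and 58 in TetLowReg and 399, 775 and 134 in TetLowProg. It made up 0% to 22.2% of the counts of both in the 6 libraries with Hdac1, and with both added each TetLowProg library remained above the other 6 (49.4 against 28.1 CPM). No other gene of the list had a copy of at least 100 aligned bases at 95% identity or more.

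Hdac2 (ENSMUSG00000019777; chr10:36850435-36877890, plus strand), the close relative of Hdac1 in the same complexes, rested on 1 library. TetLowProg replicate 9 had 9038 counts and TetLowReg replicate 8 had 56, while the other 7 libraries had between 0 and 4. It did not pass the filter, and TetLowProg replicates 10 and 12, where Hdac1 had 5390 and 1422 counts, held 0 and 2. Hdac3 (ENSMUSG00000024454, on chromosome 18) had 0 counts in each TetHighProg library, 0, 746 and 512 in TetLowReg and 1897, 0 and 28 in TetLowProg. It too passed the filter only through low avidity libraries. Its log2 fold change for TetLowProg against TetHighProg, fixed in direction, was 7.31 (SE 3.79; edgeR, adjusted p = 0.194), and 1.39 (edgeR, adjusted p = 0.339) with the term for genes detected. Against TetLowReg it was -1.09 (SE 4.11; edgeR, adjusted p = 1.0), and it was 0.17 when library size replaced TMM. Both values rested on TetLowProg replicate 9, without which they were 2.74 and -5.46. Other single libraries moved the second to between -1.87 and -0.09 and, for TetLowProg replicate 12, the first to 8.18.

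**Figure D3:**
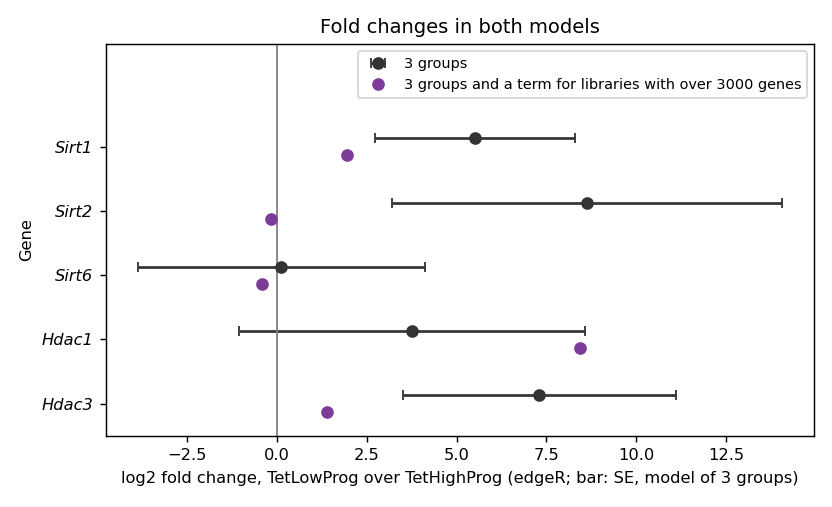
Log2 fold change for TetLowProg over TetHighProg of the 5 genes tested, in the model of 3 groups (black, with bars of 1 SE) and with a term for libraries with over 3000 genes detected (purple, no bars). Sirt2 moves from 8.64 to -0.17 and Hdac3 from 7.31 to 1.39, while Hdac1 moves from 3.76 to 8.45 and the median of all genes from 4.27 to 1.22.

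Compared per length, as CPM per kilobase of exon (RPKM), the mean over the 9 libraries was 114 for Sirt7, 18.7 for Sirt6, 13.6 for Sirt2, 10.1 for Hdac1, 4.84 for Hdac2, 2.65 for Hdac3 and 0.313 for Sirt1, with Sirt3 and Sirt4 at 0.0227 and 0.00237. The libraries of neighbors in this order overlapped in every case. Sirt7 alone made up 56.1% to 80.3% of the summed CPM of the 10 genes in the TetLowReg libraries, 37.6% and 79.4% in TetLowProg replicates 9 and 12, and at most 0.0290% in the other 4. In those 4, Sirt6 held 81.6% to 96.7% of the sum in TetHighProg and 28.4% in TetLowProg replicate 10, where Hdac1 made up nearly all of the rest.

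Leaving out Sirt7, the other 9 genes summed to 3.62, 2.09 and 152 CPM in TetHighProg, 785, 255 and 351 in TetLowReg, and 484, 299.5 and 258 in TetLowProg. In each library 1 gene held most of this sum, and it was not the same gene throughout. It was Sirt6 in all 3 TetHighProg libraries and in TetLowReg replicate 6, where it held 785.36 of 785.41 CPM, Sirt2 in replicates 7 and 8 of TetLowReg and 12 of TetLowProg, Hdac2 in TetLowProg replicate 9 and Hdac1 in replicate 10. On the log2(CPM + 1) scale the mean was 8.39 ± 0.47 in TetLowProg, 3.70 ± 3.10 in TetHighProg and 8.69 ± 0.83 in TetLowReg (SD, n = 3). TetLowProg was 4.69 above TetHighProg and 0.30 below TetLowReg, and the latter difference turned to 0.16 above without TetLowReg replicate 6. The former was 6.47 without TetHighProg replicate 5, 3.66 without replicate 2 and 3.95 without replicate 1. The median gene of all 5813 was itself 2.14 higher in TetLowProg than in TetHighProg on this scale, and 4.27 higher as a fitted log2 fold change, and a sum over several genes cannot be set against single genes. No test is given for this sum, since the genes were chosen with results of these libraries known.

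The number of the 10 genes with at least 10 counts followed the number of all genes found. It was 1, 1 and 2 in TetHighProg replicates 1, 2 and 5, beside 3.94%, 1.82% and 9.65% of all genes in the tables. In TetLowReg replicates 6, 7 and 8 it was 2, 5 and 7, beside 2.32%, 24.3% and 21.9%. In TetLowProg replicates 9, 10 and 12 it was 7, 2 and 7, beside 24.5%, 3.48% and 19.5%. The 4 libraries with at least 5 of the 10 genes were thus the 4 with most genes of any kind, and the part of this difference in the results above was not tested beyond the added term.

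**Figure D4:**
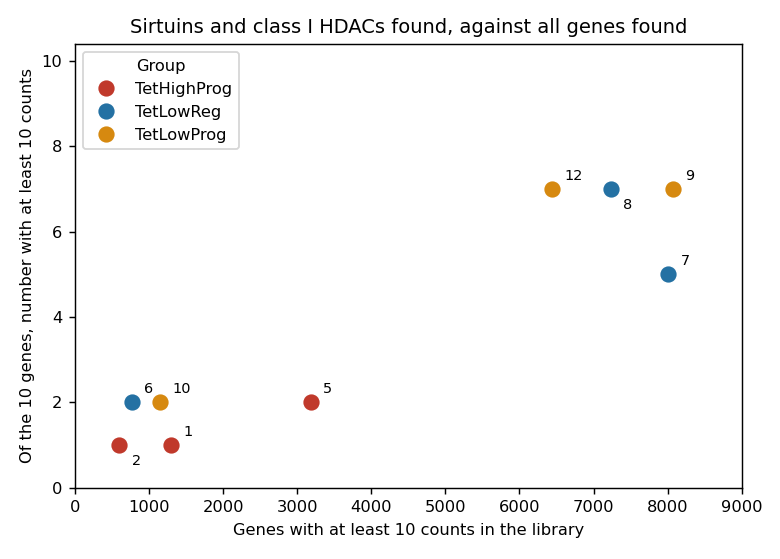
Number of the 10 genes with at least 10 counts (vertical) against the number of all genes with at least 10 counts (horizontal) in each library, colored by group and labeled by replicate. The 4 libraries with 6443 genes or more hold 5 to 7 of the 10, and the other 5 hold 1 or 2.

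Across all genes, edgeR called none of 5813 (0.00%) in any of the 3 comparisons when a call needed an adjusted p under 0.05 together with a log2 fold change beyond 2 in size, and so in the comparisons with TetLowProg none of the 5 genes of the list that it tested besides Sirt7. At an unadjusted p under 0.05 it gave 1135 genes for TetLowReg against TetHighProg, 1475 for TetLowProg against TetHighProg and 54 for TetLowProg against TetLowReg. Other tools called many genes in the comparison with TetHighProg. limma-voom with sample quality weights called 49.9% of genes for TetLowProg against TetHighProg, among them Sirt1, Sirt2 and Hdac1, 3 of the 5 genes tested besides Sirt7. DESeq2 called 43.1%, among them Sirt1, Sirt2 and Hdac3, 3 of the 4 with an adjusted p, and with poscounts size factors it called 20.6% and neither of 2. Sirt1, Sirt2 and Hdac3 had at most 4 counts in any TetHighProg library, so these calls could go in 1 direction only. For TetLowProg against TetLowReg, DESeq2 called 1.22% of genes, or 0.247% with poscounts size factors, and limma-voom 0.00%, with none of the listed genes among them. The comparisons share libraries with each other and with the contrast that chose the list.

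The expression of other genes that act with these enzymes was taken from lists of the same kind, described by their values for TetLowProg against TetHighProg (edgeR, with a median of 4.27 over all genes). Of 8 other deacetylases, 3 passed the filter. They had no count in TetHighProg and passed only through low avidity libraries, which fixed the direction of their fold change. No count or median against TetHighProg is therefore given for them. These were Hdac4, Hdac5 and Hdac7, class IIa deacetylases that signaling moves between nucleus and cytoplasm. Hdac4 had 0 counts in TetHighProg, 0, 6 and 359 in TetLowReg and 3955, 0 and 967 in TetLowProg. Hdac7 had 0 counts in TetHighProg, 2, 439 and 1 in TetLowReg and 1608, 0 and 161 in TetLowProg. Hdac5 had 0 counts in TetHighProg, 0, 0 and 74 in TetLowReg and 474, 0 and 861 in TetLowProg. All 3 were at 0 in TetLowProg replicate 10, so the groups overlapped, and none was called by edgeR.

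Of 30 partners of class I HDACs in the Sin3, NuRD, CoREST and NCoR complexes, 22 were tested and 5 had an unadjusted p under 0.05 and a higher level in TetLowProg, where 24.8% of all genes did. Their median log2 fold change was 1.88, and 7 of the 22 had under 10 counts in every TetHighProg library. Arid4a, a Sin3 subunit, had 55026, 16401 and 26487 counts in TetHighProg, 0, 13812 and 7126 in TetLowReg and 12216, 0 and 26937 in TetLowProg. It was thus abundant in TetHighProg replicates 1 and 2, where Hdac1 and Hdac3 had no count and Hdac2 at most 4. Rbbp7, a histone-binding subunit, had 2052, 0 and 35741 counts in TetHighProg, 0, 19808 and 11445 in TetLowReg and 9203, 11055 and 20530 in TetLowProg. Arid4b had 69, 0 and 11694, then 2, 14555 and 8631, and then 6243, 0 and 34832 in the same order.

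Of 16 genes of NAD+ synthesis and use, 5 (31.2%) passed the filter and were tested, against 17.6% of all genes in the tables. Their median was 0.49, and none had an unadjusted p under 0.05, where 24.8% of all genes did and were higher in TetLowProg. Of the 5, 1 had under 10 counts in every TetHighProg library. Nampt, the rate-limiting enzyme of NAD+ salvage, had 25688, 1 and 13482 counts in TetHighProg, 0, 206 and 686 in TetLowReg and 6458, 0 and 6052 in TetLowProg. It was at 0 in TetLowReg replicate 6, the library with most Sirt7. Parp2, a DNA repair enzyme that also consumes NAD+, was found in all 9 libraries, with 20 to 39828 counts, and Parp1 in 2, with 2000 counts in TetLowReg replicate 8 and 11817 in TetLowProg replicate 9. Against TetLowReg the median of the 5 was 2.73, where the median gene stood at 0.35. Of the 5, 1 had an unadjusted p under 0.05 and a higher level in TetLowProg, as did 0.430% of all genes. This gene was not called, at a log2 fold change of 9.61 (SE 4.81, edgeR adjusted p = 0.99997).

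Of 12 acetyltransferases, which add the groups that HDACs remove, 10 were tested. As 7 of the 10 had under 10 counts in every TetHighProg library, no count or median against TetHighProg is given for them. Kat7, Kat5 and Crebbp, the 3 with the highest mean CPM, had 0 counts in TetHighProg replicates 1 and 2 and 15213, 7855 and 5500 in replicate 5. Of 14 substrates of these enzymes, 9 were tested, and 1 had an unadjusted p under 0.05 and a higher level in TetLowProg. Of all genes, 24.8% did. The median of the 9 was 1.53, and 3 of the 9 had under 10 counts in every TetHighProg library. Foxo3 had 38980 counts in TetLowReg replicate 6 and was found in 8 libraries, Foxo1 ranged from 0 to 12632, and Trp53, which encodes p53, from 0 to 12515. Between the low avidity groups the medians were 0.40 for complex partners, -0.59 for acetyltransferases and 0.32 for substrates, beside 0.35 for all genes. No gene of these 3 lists or of the other deacetylases had an unadjusted p under 0.05, beside 54 of all 5813 genes.

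The 5 genes whose log2(CPM + 1) was most like that of Sirt7 over the 9 libraries were Cd2, Ramac, Ostf1, Phrf1 and Arid5b, with Pearson's r of 0.997, 0.995, 0.991, 0.988 and 0.988. Cd2, an adhesion receptor of T cells, had 1, 0 and 0 counts in TetHighProg, 71620, 9783 and 3981 in TetLowReg and 6015, 0 and 13404 in TetLowProg. Ramac, a cofactor of mRNA cap methylation, had 0 counts in TetHighProg, 2618, 632 and 347 in TetLowReg and 770, 0 and 1458 in TetLowProg. All 5 were at 0 or 1 count in the 4 libraries without Sirt7 and above 300 in the other 5. The r values come from the same libraries that chose Sirt7, the points share their depth and their number of genes detected, and no p is given.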

How the data were processed

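Bulk Smart-seq2 libraries of sorted T cells were analysed, 3 in each of 3 groups taken from the sample titles. The authors aligned reads to GRCm39 with STAR 2.7.6a and deposited 1 table of raw, unnormalized counts for each library. The submitters' processing notes and the methods also name featureCounts, while the tables are laid out as STAR writes gene counts. Which annotation release was used is not given in the sources used here. Of each library, 5.02% to 10.4% of reads were unmapped, 7.51% to 14.5% mapped to several places, 18.5% to 41.3% fell outside genes and 1.05% to 1.96% were ambiguous, and these 4 summary lines were left out. One strand column held 50.2% to 50.8% of stranded counts, so the unstranded column was used. Gene names and coordinates came from GENCODE M39, which matched 28645 of 32976 identifiers.

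Counts were tested with edgeR 4.0.16 in R 4.3.3 (quasi-likelihood, TMM, 3 groups in one model, default filter on low counts, prior count of 2, Benjamini-Hochberg adjustment over all 5813 genes, two-sided). The SE is the absolute log2 fold change divided by the square root of F. Single values were compared by exact permutation of log2(CPM + 1), with CPM over the gene counts. A gene counted as found at 10 counts. A level of 0 was bounded at 3 counts, and this bound covers counting error only. Other tools were limma 3.58.1 and DESeq2 1.42.0. The test scripts were tested on simulated data, with a pass mark set only at a low spread. The common dispersion that edgeR estimated for these data was 8.12. Passing that mark therefore does not show how well changes are found at the spread of these libraries. Transcripts were aligned to the genome with minimap2 2.31, and figures were drawn with matplotlib 3.10.9.

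All 10 genes are named. Of each other list the 3 genes with the highest mean CPM are named, and for likeness to Sirt7 the 5 with the highest r. The genes and lists were chosen with earlier results of these data known. Alternatives were other normalizations, filters, tools, strand columns, detection minimums, pseudocounts and libraries left out. The term for genes detected, the other Hdac1 scales and the pooled Sirt7 ratios without single libraries were added after seeing the data.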

Additional observations from a re-analysis of the deposited data

How the results depend on the processing

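The count of genes called depended on the tool. For TetLowReg against TetHighProg, TetLowProg against TetHighProg and TetLowProg against TetLowReg, edgeR called 0 in each, DESeq2 1830, 2370 and 62, and DESeq2 with poscounts size factors 1018, 857 and 27. limma-voom called 2411 and 2901 in the first pair. The cause of these gaps was not tested. edgeR on the 2 groups alone called 2, 1 and 1, TMMwsp factors gave 1 in the first and the last comparison, and library size without TMM gave 1 in the second. With a library left out, edgeR called 0 to 4, 0 and 0 to 2. Of the listed genes other than Sirt7, DESeq2 and limma-voom each called 3 for TetLowProg against TetHighProg, and every other alternative run called 0 in both comparisons with TetLowProg. Library size without TMM moved the median gene from 0.35 to 1.23 for TetLowProg against TetLowReg and from 4.27 to 4.56 for TetLowProg against TetHighProg.

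Of 183 recomputed log2 fold changes, 8 changed sign and 6 passed only by DESeq2 or limma-voom. For TetLowProg against TetHighProg, the term for genes detected turned Sirt2 to -0.17 and Sirt6 to -0.41 and raised Hdac1 from 3.76 to 8.45 (against TetLowReg from 2.81 to 7.80), and leaving out single libraries gave -1.06 to 3.44 for Sirt6. Against TetLowReg, leaving out single libraries gave -0.69 to 3.76 for Sirt1, while Hdac3 turned to 0.17 with library size and to 0.62 with DESeq2. Leave-one-out gave -0.65 to 0.16 for the summed level against TetLowReg and 3.66 to 6.47 against TetHighProg. The latter was 3.53 to 5.67 under the other alternatives, lowest with a pseudocount of 10 and highest with Sirt7 included, and the former -0.90 to -0.30, with -0.82 for TMM-scaled library sizes. At a minimum of 1 count, 2, 2 and 4 of the genes were found in TetHighProg replicates 1, 2 and 5, and at 100 counts 0 in replicate 2. No paired analysis was possible because the groups share no replicate numbers. Thinning every library to 16405306 counts left the number of listed genes found unchanged in each library.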
